A study of Danio rerio with 12 samples.

Results

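Binding of Sox3 in wild type (WT) zebrafish embryos was compared between 24 and 36 hours post fertilization (hpf). The comparison rests on 3 of the 12 libraries of the study, 1 at 24 hpf and 2 at 36 hpf, each represented by its own list of peaks. Peaks of the 3 lists that shared at least 1 bp were merged, which gave 89665 regions, against 154315 when all 12 lists were merged. A region was called kept when it held a peak at 24 hpf and in both 36 hpf replicates, lost when it held a peak at 24 hpf and in neither replicate, and gained when it held a peak in both replicates and none at 24 hpf. These names describe peak lists only, since a peak that is missing from a list can still be a bound site under the threshold.

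The study profiled p63 and Sox3 by ChIPmentation, in which immunoprecipitated chromatin is cut and tagged with adaptors by Tn5 while still on the beads. All 3 libraries came from pools of whole WT embryos derived from AB and Tübingen fish, immunoprecipitated with the same anti-Sox3 antibody. The lists set beside them are Sox3 in WT embryos at 80% of epiboly (1 library), Sox3 in *tp63*−/− embryos at 36 hpf (2 libraries), which lack functional p63 and were pooled from fewer embryos, and p63 in WT embryos (2 libraries at each of 80% of epiboly, 24 and 36 hpf). The study left out a second Sox3 library at 24 hpf for its quality, so the spread at 24 hpf is not known, and the spread between the 36 hpf replicates is the only measure of error here.

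Sox3 is a transcription factor of the SoxB1 group, whose HMG domain binds DNA in the minor groove and bends it. SoxB1 factors mark neural progenitors from the neural plate onwards and hold them in an undifferentiated state, and they are lowered as neurons differentiate. Between the 2 stages the neural tube is patterned and large numbers of neurons are born. p63 is the transcription factor that defines the non-neural, epidermal ectoderm next to the neural plate.

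The 24 hpf list held 67886 peaks, and the 36 hpf lists held 51504 and 29082 peaks in replicates 1 and 2. Tags that entered the peak call, as recovered from the lists, numbered 11.6 M (megatags) at 24 hpf, 7.97 M in replicate 1 and 5.75 M in replicate 2. These are estimates and not read totals. By the uniquely mapped reads that the study states, the library of the earlier stage is instead the least sequenced of those compared, so list length followed the recovered tags and not the stated reads. The reason for the difference was not tested. Per megatag there were 5853 peaks at 24 hpf, between the 6461 and 5062 of the replicates. The log2 peak number was 0.81 lower at 36 hpf than at 24 hpf, with an SD of 0.58 over the n = 2 replicates (two-sided exact permutation p = 0.667, where 0.33 is the smallest that 1 library against 2 allows). With 1 library at 24 hpf, the stage and the recovered tags of that library cannot be told apart in the number of peaks.

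Of the merged regions, 20546 were kept (22.9%), 33677 were lost (37.6%) and 2961 were gained (3.3%). The kept regions made up 30.6% of the 67213 regions with a 24 hpf peak (95% Clopper-Pearson interval 30.2 to 30.9) but 87.4% (87.0 to 87.8) of the 23507 regions with a peak in both replicates. Most Sox3 sites found in both 36 hpf replicates thus already held a peak in the longer 24 hpf list. Gained regions were 12.6% of these sites in the full lists and 26.7% with lists of equal length. The remaining regions were found in 1 of the 2 replicates. Of these, 10730 were shared by 24 hpf and replicate 1, 2260 by 24 hpf and replicate 2, 16639 were in replicate 1 only and 2852 in replicate 2 only. The 32481 regions on which the replicates differed are almost as many as the lost regions. The counts leaned on replicate 2, the library with the shortest list: without it 31298 regions were kept and 19713 gained, and without replicate 1 there were 22755 and 6012. Intervals in parentheses are 95% Clopper-Pearson intervals and cover counting error only.

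The excess of lost over gained regions was smaller in lists of equal length, and other settings lowered it as well. When each list was reduced to its 29082 strongest peaks, 14878 regions were kept, 9114 were lost and 5413 were gained, which lowered the ratio of lost to gained from 11.4 to 1.68. With the lists thinned to the recovered tags of replicate 2, the counts were 18702, 17322 and 4456, a ratio of 3.89. As log2, the ratio was 3.51 in the full lists and 0.75 at equal length. It was 0.58 when a peak in either replicate sufficed in the full lists, and 0.87 without replicate 2. Which of these accounts for the excess was not tested. At equal length the 9114 regions found only at 24 hpf still exceeded the 5932 found only in replicate 1 and the 6040 found only in replicate 2. At equal length, too, 5413 regions were shared by the replicates alone, against 2627 and 2310 shared by 24 hpf and a single replicate. Of the regions lost at equal length, 75.3% were also lost in the full lists, whereas 37.2% of those gained at equal length were also gained there.

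**Figure D1:**
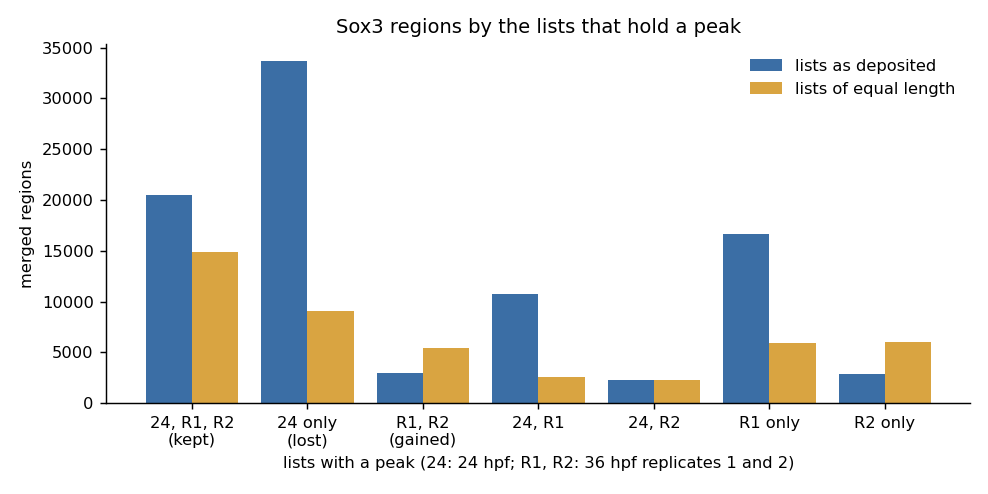
Merged Sox3 regions by the lists that hold a peak (24, the 24 hpf library; R1 and R2, replicates 1 and 2 at 36 hpf), for the lists as deposited and for the 29082 strongest peaks of each list. Lost regions fall from 33677 to 9114 and gained regions rise from 2961 to 5413 when the lists have the same length.

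The replicates resembled each other more than either resembled 24 hpf once the lists had the same length. In the full lists the shares followed list length: 79.3% of the replicate 2 peaks overlapped a 24 hpf peak and 81.8% a replicate 1 peak, whereas 61.7% of the replicate 1 peaks overlapped a 24 hpf peak and 46.0% a replicate 2 peak. As a share of the regions of both lists, the overlap was 42.0% for the replicates and 36.0% and 31.2% for 24 hpf with replicates 1 and 2. Among the 1000 strongest peaks of each list, 52.0% (48.9 to 55.1) of the 24 hpf peaks overlapped one of replicate 1 and 50.5% (47.4 to 53.6) one of replicate 2, whereas 79.6% (77.0 to 82.1) of those of replicate 1 overlapped one of replicate 2. Among the 5000 strongest the shares were 56.9%, 56.3% and 82.1%. The gap narrowed with length, to 60.6% and 59.4% against 70.2% at 29082 peaks. The strongest sites were not absent at the other stage, since 999 and 992 of the 1000 strongest 24 hpf peaks overlapped some peak of replicates 1 and 2. At the top of the lists it was thus the order of the sites that differed.

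**Figure D2:**
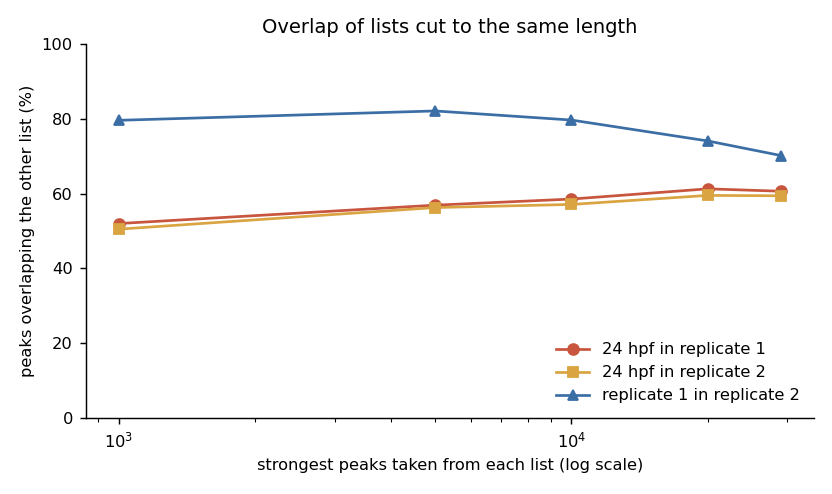
Share of peaks (%) that overlap the other list by at least 1 bp when both lists are cut to their strongest peaks, against the number of peaks taken (log axis), for the 3 pairs of lists. The replicate pair lies above both pairs with 24 hpf at every length, at 79.6% against 52.0% and 50.5% for 1000 peaks.

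Kept, lost and gained regions differed in strength within their own lists. Peaks were ranked in each list by −log10 q and given as a percentile, with 100 the strongest. At 24 hpf the median percentile was 80.4 for kept and 34.0 for lost regions, the median fold enrichment over local background 9.001 and 6.15, and the median summit height 30 and 14 tags. In replicate 1 the median percentile was 78.7 for kept and 57.2 for gained regions, and in replicate 2 it was 62.3 and 36.7. Gained regions thus stood higher in the replicate 1 list than lost regions did in the 24 hpf list, and about as high in the replicate 2 list. To be gained a region needed 2 peaks and to be lost only 1, so these ranks are not like for like.

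The ranks were split into 10 bins of equal width. The lost share fell steadily, from 79.1% of the 6656 regions in the weakest 24 hpf bin to 3.16% (2.75 to 3.60) of the 6779 in the strongest, while the kept share rose from 6.16% to 88.7%. The gained share of regions found in both replicates fell from 39.9% (32.9 to 47.2) of 193 regions in the weakest bin to 0.510% (0.303 to 0.806) of 3526 in the strongest. Weak peaks were missing from a replicate as well: in the weakest bin of replicate 1, 91.7% of regions had no replicate 2 peak and 70.7% had no 24 hpf peak. Few peaks of any class had a −log10 q under 4 at 24 hpf, with 282 lost (0.837%) against 13 kept regions (0.0633%). Of the lost regions 827 (2.46%) lay within 100 bp of a 36 hpf peak. Among gained regions 102 (3.44%) lay within 100 bp of a 24 hpf peak.

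**Figure D3:**
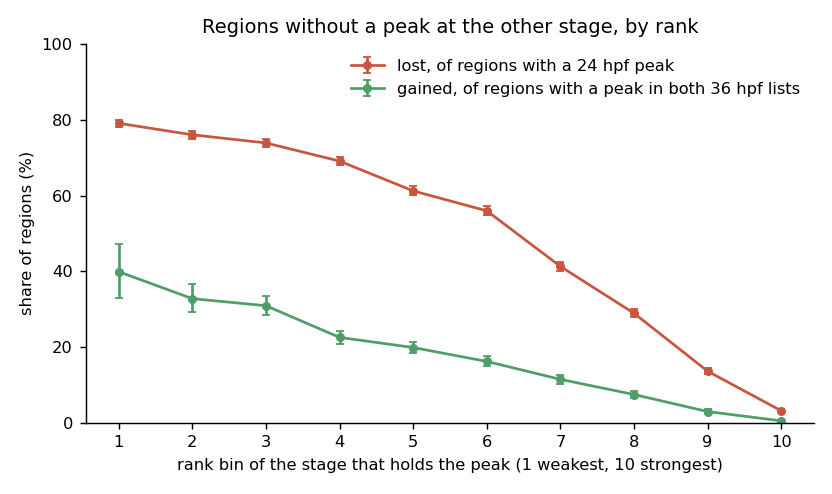
Share of regions (%) without a peak at the other stage, by rank bin of −log10 q (1 weakest, 10 strongest), with 95% Clopper-Pearson intervals: lost regions by 24 hpf rank and gained regions by the mean rank of the 36 hpf replicates. The lost share falls from 79.1% to 3.16% and the gained share from 39.9% to 0.510%.

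Lost peaks were also narrower than kept peaks of the same rank, and so were gained peaks in all but the weakest bin. A wider peak can overlap a peak of another list more readily, so width bears on the class itself. How much of the difference follows from this was not tested. In the strongest 24 hpf bin the median width was 267 bp for lost and 399 bp for kept peaks, and in the weakest bin it was 140 bp and 158 bp. At 36 hpf, replicate 1 peaks of the weakest bin had a median width of 161 bp in gained and 160 bp in kept regions. In bin 5 the widths were 203.5 bp and 239.5 bp, and in the strongest bin, with 18 gained regions, 300 bp and 436 bp. Merged regions of the kept class had a median width of 382 bp, against 163 bp for lost and 248 bp for gained regions, part of which follows from merging 3, 1 and 2 lists.

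Within kept regions, which were chosen for overlapping peaks, summits lay slightly farther apart between the stages than between the replicates. The 19282 kept regions with exactly 1 peak in each list were used. Summits at 24 hpf lay at a median distance of 34 bp from those of replicate 1 and 37 bp from those of replicate 2, against 30 bp between the replicates. Summits were within 100 bp in 85.6%, 83.9% and 88.4% of regions. In the 7527 regions where the summits of the replicates lay within 20 bp of each other, the 24 hpf summit was more than 100 bp from both in 613 (8.14%). The same count with replicate 1 or replicate 2 set apart gave 4.52% and 5.77%, so the shift between stages exceeded that within 36 hpf by a few percentage points.

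The order of Sox3 peaks by strength differed more between the stages than between the replicates. Over the same 19282 regions, Spearman's rho of −log10 q was 0.55 and 0.52 between 24 hpf and replicates 1 and 2, and 0.80 between the replicates. These are correlations across regions, which are not independent replicates. Regions were then ranked among the kept regions alone, so that list length did not set the percentile scale. List length still bore on which regions were kept. In 2916 regions (15.1%) the rank was over 20 percentiles higher in both replicates than at 24 hpf, and in 2863 (14.8%) it was over 20 percentiles lower in both. Together they made up 29.97% of the kept regions, against 9.94% with replicate 1 and 11.8% with replicate 2 set apart in the same way. A shift of over 40 percentiles occurred in 9.30% of regions with 24 hpf set apart, and in 1.11% and 1.32% with a replicate set apart.

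The *tp63*−/− embryos, which took no part in choosing these regions, gave 2 further Sox3 lists at 36 hpf. They placed the regions on the side of the WT replicates. Regions that ranked higher at 36 hpf had a median percentile of 22.8 at 24 hpf, 68.2 and 68.8 in the WT replicates, and 61.9 and 62.8 in the *tp63*−/− replicates (n = 2904 with a peak in all 5 lists). Regions that ranked lower had a median of 70.1 at 24 hpf, 24.8 and 22.8 in the WT replicates, and 32.4 and 30.5 in the *tp63*−/− replicates (n = 2808). The other kept regions had medians of 51.9 and 52.2 in the *tp63*−/− replicates, so that the first group lay above them and the second below in both. The 24 hpf values that chose the regions are the same ones read here, so the size of the shift from 24 hpf is no independent measure. The mutant medians lay nearer to 24 hpf than the WT medians, which are extreme by the choice of the regions on the WT lists. Across 18887 regions Spearman's rho was 0.76 to 0.90 among the 4 libraries at 36 hpf and 0.51 to 0.57 between 24 hpf and each of them. With 1 library at 24 hpf, the stage cannot be told apart from a trait of that library.

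**Figure D4:**
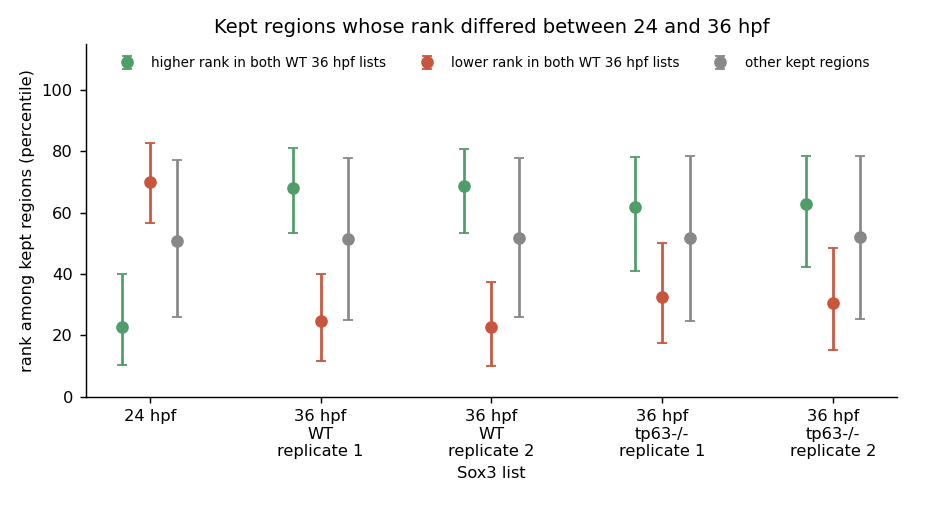
Rank of −log10 q among kept regions (percentile, 100 the strongest) in 5 Sox3 lists, as medians with quartiles, for regions that ranked over 20 percentiles higher in both WT 36 hpf lists than at 24 hpf, those that ranked over 20 lower, and the rest. The 24 hpf and WT lists chose the groups; the *tp63*−/− lists did not, and their medians are 61.9 and 62.8 for the first group and 32.4 and 30.5 for the second.

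Sox3 regions with a 24 hpf peak lay at p63 sites of the gastrula more often than regions with peaks at 36 hpf alone. A p63 site was a region with a peak in both p63 replicates of a stage. At 80% of epiboly p63 sites covered 35.1% (34.5 to 35.8) of kept, 16.1% (15.7 to 16.5) of lost and 5.17% (4.40 to 6.03) of gained regions, beside 18.5% of all merged regions. The split followed the 24 hpf peak in all 7 classes: regions with 24 hpf and 1 replicate stood at 24.8% and 26.7%, and those in replicate 1 only or replicate 2 only at 2.32% and 4.87%. The p63 sites of 24 hpf covered 13.2% of kept, 6.02% of lost and 1.49% of gained regions, beside 6.57% of all. Those of 36 hpf, the stage of the replicates, covered 4.84%, 3.51% and 1.89%, beside 3.32% of all. At both stages the lost share was near that of all regions.

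Since p63 sites were more frequent at strong Sox3 peaks, lost and kept regions were set side by side within rank bins, for each p63 library on its own. Among the strongest 24 hpf peaks, 86.9% (81.6 to 91.1) of the 214 lost regions had a p63 peak in replicate 1 of 80% epiboly, against 59.4% (58.1 to 60.6) of the 6016 kept regions. In replicate 2 the shares were 89.3% and 64.4%. In the next bin they were 66.3% against 46.6% and 72.3% against 51.8%. In the 5 weaker bins neither class was higher throughout, with 10.9% against 11.7% and 13.0% against 12.9% in the weakest. Averaged over the bins with equal weight, lost exceeded kept regions by 7.19 percentage points ± 0.54 (SD, n = 2 p63 libraries). The 214 lost regions of the strongest bin thus counted as much as the 5263 of the weakest. This SD is the spread of the p63 libraries and does not cover that of the Sox3 lists. The value was 5.27 points without WT Sox3 replicate 1 of 36 hpf and 5.88 without replicate 2. The strongest 24 hpf sites without a peak in either WT list of 36 hpf were therefore at gastrula p63 peaks more often than kept sites of like rank. Most of these lost sites did hold a Sox3 peak in *tp63*−/− embryos of 36 hpf, as given below.

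At gastrula p63 peaks, gained regions differed from kept regions in the opposite direction and at every rank. Averaged with equal weight over bins of 36 hpf rank, 10.4% of gained and 40.9% of kept regions had a p63 peak at 80% of epiboly. The difference was −30.5 percentage points ± 2.4 (SD, n = 2 p63 libraries, again without the spread of the Sox3 lists). Gained regions were lower in 10 of 10 bins in both p63 libraries, by 18.7 to 32.0 points in replicate 1 and by 23.2 to 36.5 points in replicate 2. The direction was the same for p63 at 24 hpf, at −11.7 and −23.0 points in its replicates. For p63 at 36 hpf, whose lists rest on fewer recovered tags, the differences were −2.49 and −1.97 points. Gained regions were higher there in 2 and 1 of 10 bins. In the strongest 36 hpf bin, with 18 gained regions, 22.2% of gained and 10.6% of kept regions had a p63 peak in replicate 1. In replicate 2 the shares were 16.7% and 6.44%. Lost regions differed from kept by 1.77 and 4.12 points for p63 at 24 hpf, and by −2.30 and 0.01 points at 36 hpf. In the strongest bin the p63 libraries of 24 hpf disagreed, with 23.4% of lost against 31.7% of kept regions in replicate 1 and 59.3% against 54.3% in replicate 2.

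Kept regions that changed in rank followed the same order. At 80% of epiboly p63 sites covered 59.6% (57.7 to 61.4) of the kept regions that ranked lower at 36 hpf, 16.5% (15.2 to 17.9) of those that ranked higher and 33.1% (32.3 to 33.9) of the others. For p63 sites of 36 hpf, from lists with fewer recovered tags, the shares were 5.62%, 3.74% and 4.69%. By the choice of the groups, the median 24 hpf rank among kept regions was 70.3 for those that ranked lower and 23.4 for those that ranked higher. It was 50.3 for the others. Over the 24 hpf bins, gastrula p63 sites of kept regions rose from 7.80% in the weakest to 54.6% in the strongest. How much of the order follows from 24 hpf rank alone was not tested. With lists of equal length, lost exceeded kept regions at gastrula p63 peaks by 14.5 points over 5 rank bins. Gained regions stood 34.5 points below kept over 8 bins. The full lists gave 10 bins for both, so these averages are not like for like with those of the full lists. The embryos were whole, so that fewer Sox3-positive cells and less binding per cell cannot be told apart, and a shared peak does not place both factors in the same cell. Regions with a peak in all 9 other lists numbered 203 among kept (0.988%), 6 among lost and none among gained regions, and their part in these shares was not tested.

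**Figure D5:**
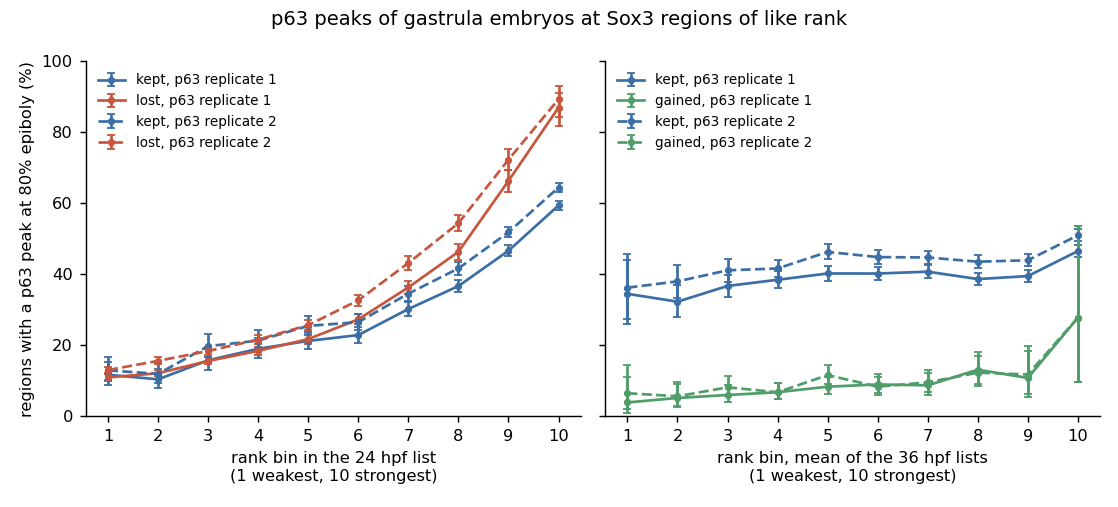
Share of Sox3 regions (%) with a p63 peak at 80% of epiboly, for each of the 2 p63 libraries (solid and dashed), with 95% Clopper-Pearson intervals: kept and lost regions by 24 hpf rank bin (left), kept and gained regions by mean 36 hpf rank bin (right; 1 weakest, 10 strongest). Lost regions rise above kept regions in the strong bins, to 86.9% and 89.3% against 59.4% and 64.4%, and gained regions lie below kept regions in every bin.

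Sox3 itself at 80% of epiboly showed the same order of kept and gained regions. Of 6045 Sox3 peaks at that stage, 5229 overlapped one of the merged regions. They covered 16.6% (16.1 to 17.1) of kept, 2.47% (2.31 to 2.64) of lost and 1.18% (0.825 to 1.64) of gained regions, beside 5.83% of all. Averaged over bins of 24 hpf rank, the shares were 5.80% of lost and 9.20% of kept regions, with lost higher in 0 of 10 bins. For lost regions the direction was thus opposite to that of gastrula p63 peaks. Over bins of 36 hpf rank they were 1.77% of gained and 13.9% of kept regions. Sox3 sites of the gastrula that were present at 24 hpf were mostly kept, with 3407 kept against 832 lost regions. A peak at 80% of epiboly and in both 36 hpf replicates with none at 24 hpf occurred in 35 regions. Kept regions that ranked lower at 36 hpf held a gastrula Sox3 peak in 27.0% of cases, and those that ranked higher in 6.58%. These groups, too, were not compared at like 24 hpf rank.

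In the full lists, most gained regions and a minority of lost regions had a Sox3 peak in both *tp63*−/− lists of 36 hpf. A peak in both mutant lists was found in 98.0% of kept, 83.6% (82.2 to 84.9) of gained and 21.5% (21.1 to 22.0) of lost regions, beside 48.3% of all merged regions. At least 1 mutant list held a peak in 94.2% of gained and 43.9% of lost regions, beside 65.5% of all. With WT lists of equal length, both mutant lists covered 94.1% of gained and 50.3% of lost regions. Gained regions were chosen for WT peaks at 36 hpf and lost regions for their absence, so part of the contrast follows from the choice. A gained region also needed peaks in 2 lists and a lost region in 1. Regions in WT replicate 1 only and in replicate 2 only had both mutant peaks in 20.7% and 38.3%. The mutant lists were longer than the WT lists of that stage, with 81578 and 59786 peaks from 14.1 M and 12.9 M recovered tags. When they were reduced to their 29082 strongest peaks, the shares were 84.7%, 47.6% and 3.54%. Of the 214 lost regions in the strongest 24 hpf bin, 87.4% and 85.0% had a peak in mutant replicates 1 and 2. Calling classes without WT replicate 2 lowered the gained share to 30.4%, with 24.9% for lost regions. Without replicate 1 the shares were 62.1% for gained and 33.0% for lost regions. List length, genotype and number of embryos differ together between these lists and cannot be told apart.

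The 5 strongest regions of each class on chromosomes 1 to 25 are given with their values, on the genome build GRCz10 (danRer10). The strongest kept region, chr20:4437664-4438054, had a fold enrichment of 34.6 at 24 hpf and of 32.4 and 35.1 in the replicates. It also held a peak in all 9 other lists, p63 included, with fold enrichments of 27.9 to 36.6. It was 1 of 203 kept regions with a peak in all 12 lists, a trait that does not set Sox3 apart from p63. The second, chr5:63605226-63605766, reached 17.8 at 24 hpf and 22.6 and 25.02 in the replicates, with p63 peaks at 80% of epiboly of 7.73 and 8.68. The third, chr24:38404519-38404961, again held a peak in every list. The fourth, chr20:21308043-21308591, had 18.8, 25.3 and 23.3 and a single p63 peak, of 5.03, at 24 hpf. The fifth, chr11:43570539-43571090, had 20.3, 28.1 and 28.4.

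The strongest lost region, chr4:11054395-11054927, had a fold enrichment of 15.5 and 62 summit tags at 24 hpf and no peak in either replicate. It held p63 peaks of 6.28 and 8.76 at 80% of epiboly and of 10.8 and 6.14 at 24 hpf, and a gastrula Sox3 peak of 7.93. The second, chr1:25369444-25369699, had 14.9 at 24 hpf and 10.3 for Sox3 at 80% of epiboly. The third, chr24:4116964-4117422, had 9.76, the fourth, chr1:24747806-24748069, had 13.8, and the fifth, chr23:37739162-37739415, had 18.7. All 5 lost regions held p63 peaks in both 80% epiboly libraries and none at 36 hpf. Of the 214 lost regions in the strongest 24 hpf bin, 82.2% held p63 peaks in both 80% epiboly libraries. A p63 peak at 36 hpf was found in 8.41% and 6.07% of them in replicates 1 and 2, so the 5 regions are not unusual in this. Each of the 5 also held a Sox3 peak in at least 1 *tp63*−/− library, as did 94.4% of the lost regions in that bin. None of the 5 thus lacked a 36 hpf peak in every library of that stage.

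The strongest gained region, chr20:55337915-55338181, had a fold enrichment of 16.6 and 14.8 in the replicates and none at 24 hpf, and p63 peaks at 80% of epiboly (16.0 and 14.4) and at 36 hpf (19.4 and 12.5). The second, chr5:15623365-15623712, had 16.5 and 18.2. The third, chr17:9089710-9090128, had 18.6 and 18.9, and the fourth, chr7:25699840-25700275, had 19.1 and 15.5. The second to the fourth held peaks in both *tp63*−/− lists (14.2 to 18.7) and in no p63 list. The fifth, chr23:35990813-35991124, had 16.0 and 18.2, with p63 peaks of 4.61 and 3.67 at 80% of epiboly. All 5 gained regions held a peak in both *tp63*−/− lists, as did 100% of the 18 gained regions in the strongest 36 hpf bin.

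The 5 kept regions with the largest gain in percentile showed strong peaks at 36 hpf over a weak one at 24 hpf. At chr11:36229672-36230161 the summit held 9 tags at 24 hpf and 48 and 36 tags in the replicates, and fold enrichment was 4.69, 19.1 and 15.5. The mutant lists gave 15.3 and 17.9, and no p63 list held a peak. The others were chr22:3001844-3002310 (4.59 at 24 hpf, 17.6 and 15.8 at 36 hpf), chr2:52203350-52203744 (5.21, 22.3 and 20.3), chr18:49361121-49361561 (4.21, 15.2 and 13.7) and chr24:30511028-30511378 (5.13, 20.5 and 16.6). Of these 5 regions only that on chromosome 18 held p63 peaks, at 80% of epiboly. Among the 1364 kept regions that rose by over 20 percentiles within the lists, 11.9% held p63 peaks in both 80% epiboly libraries. The share was 34.5% of all 19282 kept regions with 1 peak per list. Those that rose had a median 24 hpf percentile of 29.4, and kept regions of 24 hpf bin 3 stood at 11.8%.

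The 5 kept regions with the largest loss in percentile all held p63 peaks in both 80% epiboly libraries. Such peaks were found in 52.0% of the 2610 kept regions that fell by over 20 percentiles within the lists. The share was 34.5% of all 19282 kept regions with 1 peak per list. Those that fell had a median 24 hpf percentile of 85.3. Kept regions of 24 hpf bins 9 and 10 stood at 40.9% and 54.6%, so the 52.0% is not set apart from 24 hpf rank. At chr18:40694484-40694922 fold enrichment was 14.8 at 24 hpf and 5.34 and 5.56 in the replicates, with 45, 8 and 8 summit tags. In the *tp63*−/− lists it was 14.95 and 12.3. Mutant values lay between those of 24 hpf and of the WT replicates at chr9:37114165-37114724 (13.7 at 24 hpf, 4.75 and 5.35 in WT, 11.05 and 9.75 in mutants) and at chr7:21338930-21339319 (15.6, then 5.34 and 5.35, then 10.2 and 13.2). At chr5:19815428-19815842 the values were 11.8, then 5.18 and 5.55, then 9.49 and 7.12, and at chr25:7660381-7660729 they were 12.1, then 5.34 and 5.35, then 8.72 and 8.93. In all 5 both mutant values lay above both WT values, although these regions were chosen for low values in the WT lists, so part of that gap follows from the choice. The mutant lists also rest on more recovered tags, 14.1 M and 12.9 M against 7.97 M and 5.75 M in WT. Whether the recovered tags or the genotype have a part in the gap was not tested.

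In 3 kept regions the 24 hpf summit lay far from a shared 36 hpf summit. In chr5:36013868-36014838 it was 649 and 657 bp from the summits of the replicates, which lay 8 bp apart. In chr24:26339709-26340395 the distances were 512 and 516 bp against 4 bp, and in chr3:53429592-53430388 they were 453 bp to both, with the replicates at the same base. These regions were chosen for that distance, and fold enrichment in the last was 9.34 at 24 hpf and 12.1 and 12.8 at 36 hpf.

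Lost regions were spread over all chromosomes in near proportion to the kept ones, whereas the share of gained regions varied more. Over chromosomes 1 to 25 the lost share of regions with a 24 hpf peak ranged from 47.1% on chromosome 7 to 53.0% on chromosome 12, with a median of 50.5%. The gained share of regions with both replicates ranged from 10.1% on chromosome 23 to 16.4% (13.6 to 19.5) on chromosome 4, with a median of 12.6%. Chromosome 4 held 2.63% of kept, 2.91% of lost and 3.58% of gained regions, beside 3.04% of all. In zebrafish its long arm is rich in repeats and late replicating. For a look along chromosome 4 it was cut at 38.3 Mb, the midpoint of its 76.6 Mb span, which was not set by an arm boundary. Beyond that point 16 of 50 regions with both replicates were gained (32.0%, 19.5 to 46.7), against 15.1% (12.3 to 18.2) before it. The long arm as such was not examined.

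Gained regions lay closer to kept regions than lost ones did. The median distance to the nearest kept region was 13.4 kb for gained and 22.5 kb for lost regions, beside 11.3 kb from one kept region to the next. Regions in replicate 1 only and replicate 2 only lay at 28.9 kb and 20.6 kb. These distances were not compared at like rank. Lost regions, too, rest on 1 list, whereas gained regions rest on 2. In windows of 100 kb the most crowded for gained regions was chr10:16800001-16900000, with 11 gained, 15 kept and no lost regions. The most crowded for lost regions, chr19:800001-900000, held 13 lost, 1 kept and no gained regions. The most crowded for kept regions was chr22:11100001-11200000, with 18 kept, 5 lost and 1 gained. Genes and sequence motifs at these regions were not analysed here.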

How the data were processed

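Peaks were called by the authors for each library separately. Per the labels and the study's methods, alignment to GRCz10 (danRer10) used Bowtie and peak calling used MACS2, with a false discovery rate limit of 0.001, a genome size of 1.5 Gb and no control library stated. Tool versions are not given in the sources used here. The deposited lists hold a score (10 times −log10 q), the fold enrichment of the summit over local background as a ratio, −log10 p and −log10 q values, and the summit offset. The −log10 p and −log10 q values depend on the number of tags. The deposited values are not scaled between libraries, so ranks were taken within a list.

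Summit tags and the tags behind each peak call were recovered from fold enrichment and −log10 p through the Poisson formula of the peak caller, assuming the stated genome size, and are not read totals. All other steps used Python 3.11.15 with numpy 2.4.6, pandas 2.3.3, scipy 1.17.1 and matplotlib 3.10.9. Merging, classes and recovery were tested on simulated data. Regions were merged at 1 bp. Alternatives were an overlap of 50% of both peaks, a fold enrichment of at least 5, −log10 q of at least 10, equal list lengths, recovered tags scaled to the lowest of the 3 libraries, chromosomes 1 to 25, a peak in either replicate, and leaving out each replicate. Comparisons within rank bins at gastrula p63 peaks, ranks among kept regions and shortened mutant lists were added after the data were seen. Members, lists and rules were chosen with earlier results of these data known. Named regions were the 5 with the highest mean percentile in each class, the 5 largest rises and falls among kept regions with 1 peak per list, and the 3 with the farthest 24 hpf summit where replicate summits lay within 20 bp.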

Additional observations from a re-analysis of the deposited data

How the results depend on the processing

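Of 146 alternative values 77 stayed within 1.5 times a count or the error of a value, 69 moved, and none reversed. Counts, shares of regions and summit distances could not be labelled reversed, so for them this says nothing. Some values could not change by construction, such as the log2 peak number under an overlap of 50% or a peak in either replicate. No paired analysis was possible because the single 24 hpf library carries no replicate number. Here and in the next paragraph p63 sites are those of any stage, unlike the single-stage shares given above. In the main setting they covered 39.2% of kept, 18.7% of lost and 6.42% of gained regions. The limits on fold enrichment and −log10 q were applied to the p63 and mutant lists as well. With lists of equal length there were 9114 lost and 5413 gained regions (log2 ratio 0.75), the log2 difference in peak number became 0 by construction, the summit distance was 33 bp, p63 sites covered 45.4% of kept, 39.9% of lost and 12.2% of gained regions, both mutant lists covered 50.3% of lost and 94.1% of gained, and the differences from kept regions at gastrula p63 peaks were 14.5 (lost) and −34.5 (gained) points. Scaled to equal tags, the values were 17322 lost and 4456 gained (1.96), 41.8%, 27.2% and 7.97%, 31.4% and 87.1%, and 8.68 and −33.8 points. A −log10 q of at least 10 gave 12399 kept and 16134 lost regions, 31.5 bp, 22.7%, 14.6% and 4.90%, 34.9% and 93.9%, and −20.8 points for gained. A fold enrichment of at least 5 gave 30.9%, 15.5% and 4.77%, 19.8% and 81.1%, and −26.7 points for gained. An overlap of 50% of both peaks gave 20.3% of lost and 15.7% of gained at p63 sites, 29.4% and 88.6% in both mutant lists, and 7.91 and −20.1 points. A peak in either replicate gave 33536 kept and 22452 gained regions (0.58), 34.8% of kept and 3.95% of gained at p63 sites, and 31.2% of gained in both mutant lists. Windows of 100 bp each side of the summit gave 8.66 and −27.8 points. The differences in points are averages over rank bins of equal weight, 10 for lost and for gained regions in the full lists. There were 5 and 8 bins at equal length and 8 and 10 when scaled to equal tags. A −log10 q of at least 10 left 6 for each, so these averages are not like for like. Mutant lists cut to the shortest length covered 3.54% of lost and 47.6% of gained regions.

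Leaving out a 36 hpf replicate gave 22755 to 31298 kept, 36032 to 44793 lost and 6012 to 19713 gained regions (log2 ratio 0.87 to 2.90), a log2 difference in peak number of −1.22 to −0.40, a summit distance of 37 to 38 bp, p63 sites at 35.1% to 38.1% of kept, 19.4% to 20.7% of lost and 3.67% to 5.99% of gained regions, both mutant lists at 24.9% to 33.0% of lost and 30.4% to 62.1% of gained, and differences at gastrula p63 peaks of 5.27 to 5.88 points for lost and −30.8 to −29.7 for gained. Shares on chromosome 4 ranged from 2.67% to 2.81% of kept, 2.92% to 2.97% of lost and 3.46% to 3.57% of gained regions. The gained count moved most without replicate 2, which has the shortest list: 19713 regions were then gained and 31298 kept. The cause of these changes was not tested.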
